A study of Caenorhabditis elegans with 14 samples.

Results

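The reads of 10 protein-coding genes of the Caenorhabditis elegans piRNA pathway were followed through small RNA libraries: prg-1, prde-1, snpc-4, tofu-4, tofu-5, tofu-1, tofu-2, parn-1, henn-1 and tofu-7. They are 10 of 20535 protein-coding genes with rows in the deposited tables, chosen by name for their roles. The gene names were matched through the WormBase gene identifiers of the rows, since 0 member rows carried a locus name; 12 transcripts matched, 2 each for henn-1 and snpc-4 and 1 for every other gene. Transcripts were summed per gene, and reads on the gene's own strand (sense) and on the opposite strand (antisense) were kept apart, which gave 20 values per library.

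piRNAs are short RNAs of the germline that guide the Piwi protein PRG-1 to foreign and some native transcripts. In C. elegans they are transcribed from many very small genes as capped precursors, which are then shortened at the 5′ end, loaded onto PRG-1, trimmed at the 3′ end and methylated there. Targeting by PRG-1 leads RNA-dependent RNA polymerases to make secondary small RNAs (22G-RNAs), which lie antisense to the transcript. Small RNAs antisense to a gene therefore speak of its targeting by such pathways, while short sense reads are mostly pieces of its own transcript.

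All worms were late young adults grown at 20 °C on the bacterium OP50, and RNA of 17 to 30 nucleotides was gel-purified. The 6 untreated libraries held 1 each of the control strain n2 and of the mutants tofu-6(ust94), pics-1(tm2417), erh-2(ust101), prg-1(n4503) and tost-1(ust103). The 8 TDP2 libraries came from RNA dephosphorylated with calf intestinal alkaline phosphatase and then decapped with Tobacco Decapping plus 2 (TDP2): 1 each of n2, pics-1(tm2417), erh-2(ust101) and prg-1(n4503), and 4 of tofu-6, each a different allele (it20, ust94, ust95 and yt2). TOFU-6, PICS-1 and ERH-2 are subunits of the PICS complex of the series title, and TOST-1 is one of its cofactors. The labels give each allele by its name, without its lesion, and nothing in them says that the tofu-6 libraries were separate cultures, so each p-value speaks of the spread between these libraries alone.

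The libraries held 6918136 to 13469619 assigned reads. Levels are given as reads per 1000000 assigned reads (RPM), and levels of different genes are compared only as RPM per kilobase of exon (RPKM). The composition of the libraries differed widely: reads antisense to protein-coding genes made up 4.93% (tofu-6(ust94)) to 28.3% (pics-1) of a TDP2 library and 0.336% to 0.751% of an untreated one. Summed sense RPM of 13 germline and oocyte markers ran from 400 in prg-1 to 1040 in tofu-6(ust94) among TDP2 libraries, with 486 in control; 9 sperm markers ran from 0.891 in erh-2 to 62.4 in prg-1, with 35.4 in control. No germline, sperm or intestine marker was at 0 sense reads in all libraries. The mutated genes themselves had, in untreated control and mutant, 59 and 18 sense reads (tofu-6), 37 and 16 (pics-1, annotated as pid-3), 9 and 14 (erh-2) and 30 and 7 (tost-1). These are raw reads, and the libraries differ in depth (7070853 assigned reads in untreated control and 8363650 in untreated erh-2). In the other untreated mutants erh-2 had 48 (tofu-6), 35 (pics-1), 18 (prg-1) and 29 (tost-1) sense reads. In bulk samples, fewer cells of a type and less RNA per cell cannot be told apart.

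**Figure D1:**
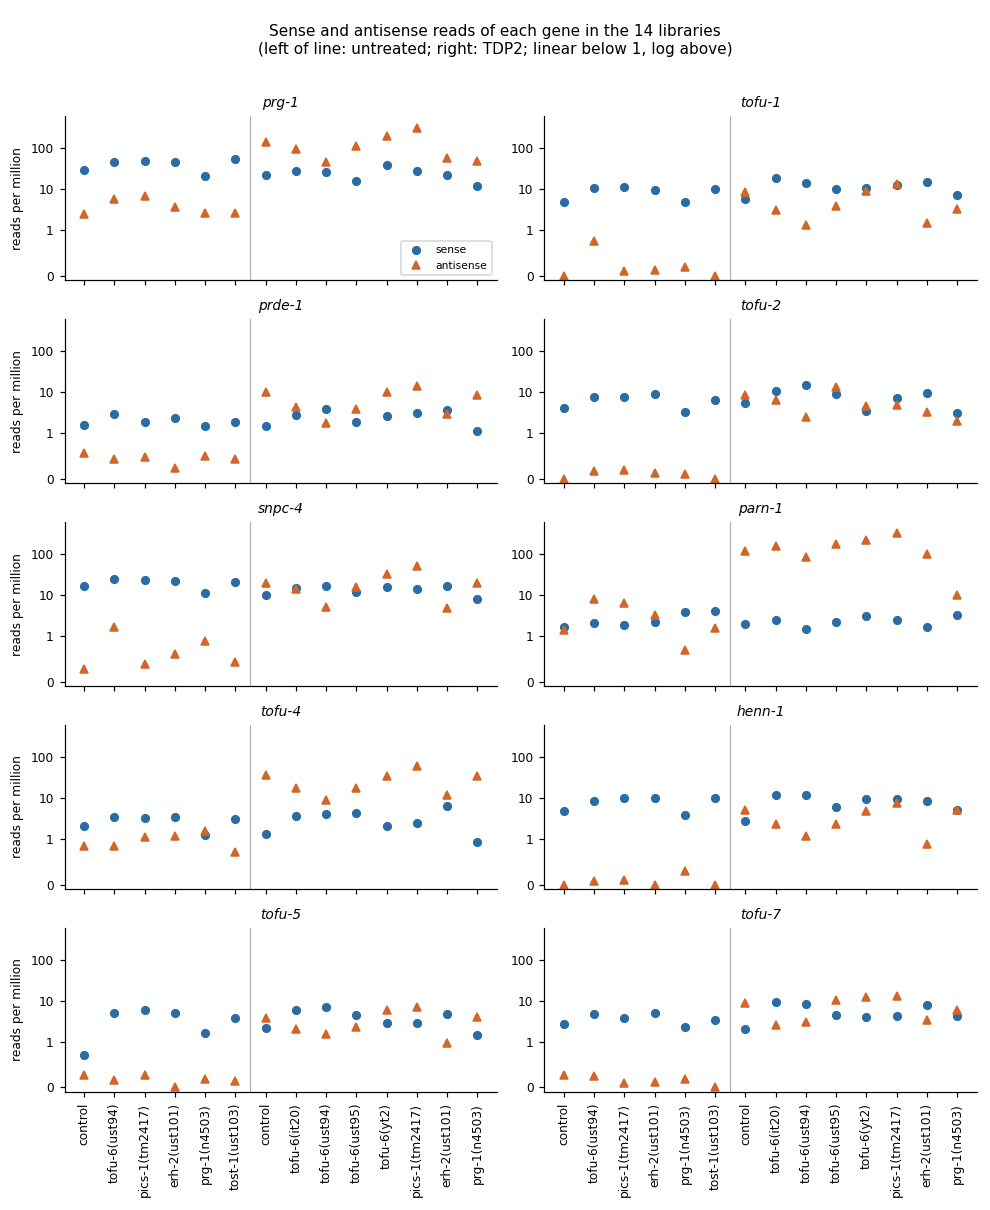
Reads per 1000000 assigned reads on the sense strand (circles) and antisense strand (triangles) of each of the 10 genes in the 14 libraries, 1 panel per gene; the axis is linear below 1 and logarithmic above, untreated libraries stand left of the line and TDP2 libraries right of it. Antisense reads lay at 0 to 8.15 RPM in untreated libraries and at 0.891 to 328 RPM in TDP2 libraries, and parn-1 antisense in prg-1(n4503) sat apart from the other TDP2 libraries.

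The order of the sense levels was led by prg-1 in both control libraries. Its level was 10.8 RPKM (exact 95% counting interval 9.34 to 12.4) in the untreated control and 8.10 RPKM (7.02 to 9.30) in the TDP2 control, and its interval did not reach that of the next gene in either. In the untreated control snpc-4 followed with 5.39 RPKM (4.46 to 6.46), then tofu-1 (3.28), henn-1 (3.15), tofu-2 (3.02), tofu-7 (2.56), tofu-4 (1.40), parn-1 (0.966), prde-1 (0.864) and tofu-5 (0.695). From snpc-4 down, the counting intervals of neighbours overlapped, so that this part of the order is not resolved. Over the 4 tofu-6 alleles the sense level of prg-1 was 10.0 ± 3.50 RPKM (SD, n = 4) and that of tofu-1 9.21 ± 2.90, a difference smaller than either spread.

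Antisense levels had another order. In the TDP2 control parn-1 was highest with 68.6 RPKM (64.7 to 72.8), then prg-1 with 53.4 (50.5 to 56.3) and tofu-4 with 23.6 (21.1 to 26.3), and none of these 3 intervals overlapped. The other 7 genes lay between 3.38 (henn-1) and 8.30 RPKM (tofu-7), each overlapping its neighbour. Among the tofu-6 alleles the same 3 genes led, with 90.8 ± 31.3 RPKM (parn-1), 42.0 ± 24.0 (prg-1) and 13.0 ± 7.13 (tofu-4; SD, n = 4 each). So the gene with the most antisense reads per length in control, parn-1, was among the lowest in sense reads.

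PARN-1 is the exonuclease that trims piRNA 3′ ends, and its antisense reads were the point at which prg-1(n4503) stood apart. In WBcel235 the gene lies on chromosome V (12692486 to 12695255, minus strand). With TDP2 the antisense reads numbered 88 in prg-1, against 1123 in control, 1323 in erh-2 and 2598 in pics-1, and in tofu-6 there were 1407 (it20), 709 (ust94), 1615 (ust95) and 1768 (yt2). As levels these were 10.1 RPM in prg-1, 121 in control, 98.2 in erh-2, 328 in pics-1 and 85.4 to 217 over the tofu-6 alleles, so the prg-1 library lay below each of the other 7, and the range of the tofu-6 alleles held control and erh-2. The fitted log2 change of prg-1 against control was −3.13 ± 1.34 (SE; edgeR quasi-likelihood test, two-sided, adjusted p = 0.213), which did not pass the threshold of 0.05. DESeq2 called it (−2.88 ± 0.92, adjusted p = 0.0309); over all settings tried the adjusted p ran from 0.0309 to 0.792. The size of the change depended on the scaling: it was −1.11 ± 1.50 (edgeR, adjusted p = 0.568) relative to microRNA reads and −2.09 ± 1.03 (adjusted p = 0.792) relative to antisense coding reads. In the same comparison edgeR called 12.1% of 8653 antisense coding features lower and 0.0809% higher, so low antisense reads in this library were not limited to parn-1.

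Against the 4 tofu-6 alleles, a comparison added after the values had been seen, the change of parn-1 antisense was −3.46 ± 1.25 (edgeR, adjusted p = 0.0705), with prg-1 below 4 of 4 alleles. Here 14.3% of antisense coding features were called lower and 0.324% higher. The call depended on 1 library and on the tool: without tofu-6(ust94) it was −3.59 ± 1.06 (adjusted p = 0.0270), and with DESeq2 −3.25 ± 0.73 (adjusted p = 0.000350). Both comparisons use the same single prg-1 library. In the main edgeR fit its spread is a trend over all features, estimated from the tofu-6 alleles, and not that of parn-1 itself. A gene on the opposite strand, frpr-15, shares 54 exon bases with parn-1; it had 452 reads over all 14 libraries and both strands, fewer than parn-1 antisense in any TDP2 library but prg-1.

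Untreated libraries held few parn-1 antisense reads: 7 in prg-1, 10 in control, 11 in tost-1, 27 in erh-2, 67 in pics-1 and 96 in tofu-6. The ratios of RPM to control were 5.76 (exact 95% counting interval 3.00 to 12.4) in tofu-6, 4.49 (2.30 to 9.79) in pics-1 and 2.28 (1.07 to 5.29) in erh-2, where the median ratios over antisense coding features were 3.15, 2.84 and 2.19. Sense reads of parn-1 numbered 40 in prg-1, 28 in tost-1, 12 in control, 18 in erh-2, 20 in pics-1 and 24 in tofu-6, a ratio of 2.32 (1.19 to 4.86) for prg-1 and 2.38 (1.17 to 5.15) for tost-1. With TDP2 the sense reads were 18 in control and 28 in prg-1 (log2 change 1.17 ± 1.34, edgeR, adjusted p = 1), which did not pass.

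As a share of the reads on parn-1, antisense reads made up 98.3% to 99.3% in the 7 other TDP2 libraries and 75.9% (exact 95% interval 67.0 to 83.3) in prg-1. This share needs no scaling between libraries. In untreated libraries it was 14.9% (6.20 to 28.3) in prg-1, 28.2% in tost-1, 45.5% in control, and 60.0% to 80.0% in erh-2, pics-1 and tofu-6. Together prg-1 and parn-1 held 72.5% to 84.1% of all antisense reads of the 10 genes in the 7 other TDP2 libraries and 40.7% in prg-1.

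**Figure D2:**
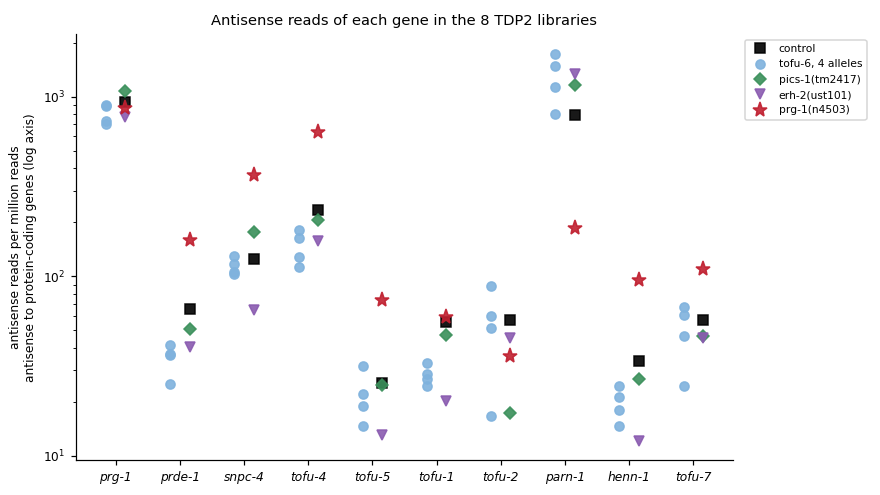
Antisense reads of each gene per 1000000 reads antisense to protein-coding genes in the 8 TDP2 libraries, on a log axis; circles are the 4 tofu-6 alleles and the other symbols 1 library each. The prg-1(n4503) library (star) was lowest at parn-1 with 186 and highest at 7 genes, such as tofu-4 with 638.

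Among the other genes, tofu-2 alone also had its lowest antisense RPM of the 8 TDP2 libraries in prg-1, at 1.96 against 2.53 to 13.6 (fitted log2 change −1.71 ± 1.25, edgeR, adjusted p = 0.879). Scaled to the antisense coding reads of each library, parn-1 stood at 186 per 1000000 in prg-1 and at 790 to 1731 in the other 7 TDP2 libraries, while tofu-2, at 35.9 in prg-1, was within the range of the others (16.7 to 87.7). On the same scale 7 of the 10 genes were highest in prg-1: prde-1, snpc-4, tofu-4, tofu-5, tofu-1, henn-1 and tofu-7. Of all 8653 antisense coding features tested, 46.8% were highest and 25.7% lowest in that library, so a high value there was common in the genome at large; the scale is relative, and genes that lose many reads raise the rest. The fitted changes against control split 5 up and 5 down (median log2 change 0.06, against −0.75 over antisense coding features), and edgeR called none; at an unadjusted p under 0.05 parn-1 alone was found.

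PRG-1 binds mature piRNAs, and reads antisense to its own gene, on chromosome I, numbered 411 in prg-1(n4503) with TDP2, 1325 in control, 763 in erh-2 and 2424 in pics-1, and 841 (it20), 370 (ust94), 1005 (ust95) and 1619 (yt2) in tofu-6. The corresponding levels were 47.4, 142.3, 56.6, 306, 95.7, 44.6, 109 and 199 RPM, so prg-1 was within the range of the other mutants. Per 1000000 antisense coding reads the 8 libraries lay between 705 and 1081, with 868 in prg-1 and 932 in control, the smallest ratio of highest to lowest library among the 10 genes. The fitted change in prg-1 was −1.15 ± 1.24 (edgeR, adjusted p = 1).

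The near copy of prg-1 in the genome, prg-2, was not matched in the tables by name, and how reads that fit both were counted is not given, so levels of prg-1 are uncertain to that extent. Sense reads of prg-1 were still present in prg-1(n4503): 216 untreated, against 203 in control, and 103 with TDP2, against 201. The ratio of RPM in untreated libraries was 0.741 (0.609 to 0.902). The rows count reads over the whole transcript and the lesion is not given in the labels, so this count does not check the genotype. In the other untreated mutants the sense reads of prg-1 numbered 370 in tost-1, 384 in erh-2, 511 in pics-1 and 553 in tofu-6, ratios of 1.60 (erh-2) to 1.86 (tost-1). Relative to sense coding reads the 5 untreated libraries of control, tofu-6, pics-1, erh-2 and prg-1 lay at 314 to 377 per 1000000 and tost-1 at 486.

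TDP2 treatment was the difference that moved the 10 genes together. Antisense reads of 10 of 10 genes rose after TDP2 (log2 change 3.35 to 4.63, edgeR with strain as a block, adjusted p = 0.000123 to 0.00543), each in 5 of 5 strains. Over antisense coding features 90.6% of 7965 rose and 0.59% fell, and their median change was 3.88 against 4.00 for the 10 genes, so the rise is that of antisense reads in general. Over all 21837 features 43% rose and 12.3% fell, and the median change was 0.68. When scaled to the antisense coding reads, 8 genes kept a positive estimate and prde-1 and tofu-5 turned negative, with no call, so none of the 10 antisense rises passed on that scale.

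Among the genes of piRNA transcription, tofu-4 antisense reads numbered 6 and 332 (untreated and TDP2) in control, 10 and 74 in tofu-6(ust94), 12 and 463 in pics-1, 10 and 155 in erh-2, and 16 and 302 in prg-1. The rise was 3.97 ± 0.43 (edgeR, adjusted p = 0.000123). TOFU-4, TOFU-5, PRDE-1 and SNPC-4 act at piRNA promoters, and SNPC-4 also belongs to the complex that activates snRNA genes. For snpc-4 the pairs were 2 and 178, 19 and 43, 4 and 395, 5 and 64, and 9 and 173 in the same order of strains (3.84 ± 0.71, edgeR, adjusted p = 0.00103). The smallest rise was that of prde-1, 3.35 ± 0.50, from 2 to 5 reads in these untreated libraries to 15 to 114 with TDP2. On the opposite strand F57C9.6 shares 92 exon bases with tofu-4, W01A8.6 17 with tofu-5, C02F5.14 86 with henn-1 and D2030.12 12 with prg-1, and glb-14 lies within prde-1 without sharing exon bases.

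At henn-1 and the genes of 5′ processing, antisense reads started from almost none. HENN-1 is the methyltransferase of piRNA 3′ ends; its gene had 0 antisense reads in untreated control and erh-2, 1 each in tofu-6 and pics-1, and 3 in prg-1. With TDP2 it had 48 in control, 12 in erh-2, 10 in tofu-6(ust94), 60 in pics-1 and 45 in prg-1 (4.63 ± 0.69, edgeR, adjusted p = 0.000328). TOFU-1 and TOFU-2, which are needed for processing of the 5′ end, had 0 to 9 and 0 to 2 antisense reads untreated. With TDP2 they had 79 and 81 in control, 11 and 21 in tofu-6(ust94), 106 and 39 in pics-1, 20 and 45 in erh-2, and 28 and 17 in prg-1. The 9 untreated reads of tofu-1 were in tofu-6(ust94), where its level went only from 0.764 to 1.32 RPM. The fitted change of a gene at 0 depends on the prior count, and it is not a bound.

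On the sense strand 2 of 10 genes fell after TDP2, prg-1 and snpc-4, the 2 with the highest sense levels in the untreated control. For prg-1 the RPM went from 28.7 to 21.6 in control, 21.3 to 11.9 in prg-1, 45.9 to 22.6 in erh-2, 48.4 to 27.7 in pics-1 and 47.0 to 25.7 in tofu-6(ust94), lower in 5 of 5 strains (log2 change −1.25 ± 0.27, edgeR, adjusted p = 0.00229). For snpc-4 it went from 16.5 to 10.1, 10.9 to 7.96, 22.4 to 16.8, 23.6 to 13.6 and 24.4 to 16.6 in that order (−1.05 ± 0.27, adjusted p = 0.00717). Of sense coding features 14.4% fell and 10.2% rose. Of the 13 germline and oocyte markers 10 fell and 1 rose on the sense strand (median −0.88), and 4 of 8 intestine and 4 of 6 muscle markers fell with none higher; their part in the result was not tested. The other 8 genes had estimates of −0.59 (parn-1) to −0.03 (tofu-7) and did not pass. The direction depended on the scaling: over both strands TMM gave 10 values higher and 2 lower, antisense coding reads gave 0 higher and 10 lower (all on the sense strand), and microRNA reads gave 13 higher and 0 lower. The median change over all features moved too, from 0.68 with TMM to −3.07 with antisense coding reads and 2.91 with microRNA reads. The shares of all features called relative to antisense coding or microRNA reads are not given. These counts therefore cannot be read as particular to the 10 genes. Scaled to microRNA reads all 10 sense estimates were positive, with prde-1, tofu-1 and tofu-7 called higher (2.10, 2.20 and 2.33) and prg-1 and snpc-4 at 1.00 and 1.24 with no call. That of snpc-4 missed the threshold when scaled to total reads (−0.59, adjusted p = 0.0703).

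**Figure D3:**
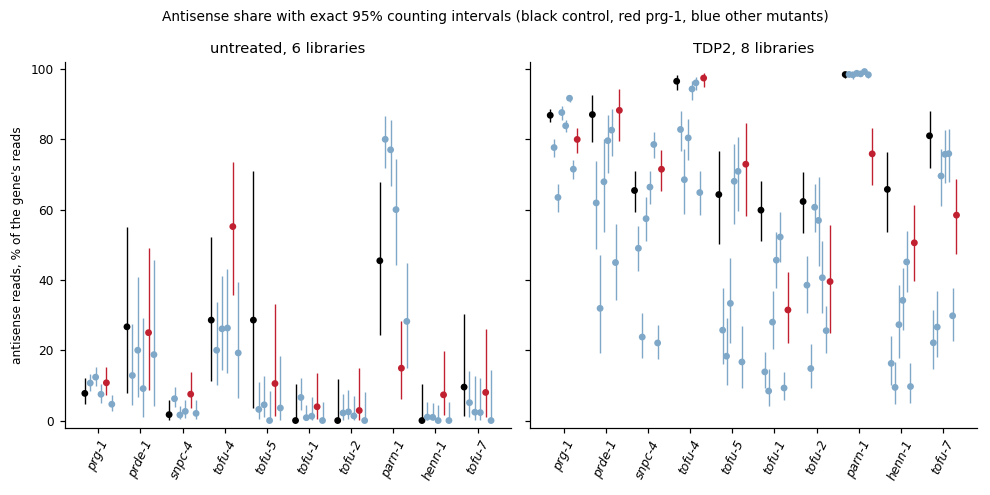
Antisense reads as a percentage of all reads of each gene, with exact 95% counting intervals, in 6 untreated libraries (left) and 8 TDP2 libraries (right); black is control, red prg-1 and blue the other mutants. Over the 10 genes together the share was 4.84% to 13.4% in untreated and 59.1% to 90.4% in TDP2 libraries; with TDP2 parn-1 stood above 98% in 7 libraries and at 75.9% in prg-1.

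The antisense share also differed between genes, among them tofu-4 and tofu-5, which are both of piRNA transcription. With TDP2, tofu-4 reached 96.5% in control and 97.4% in prg-1 and fell no lower than 64.9% in erh-2. In contrast, tofu-1 had 59.8% (51.0 to 68.3) in control, 9.26% in erh-2 and 8.40% in tofu-6(ust94). For henn-1 these shares were 65.8%, 9.68% and 9.43%, and for tofu-5 64.3%, 16.7% and 18.3%. The tofu-6(ust94) and erh-2 libraries were the lowest for the 10 genes as a sum, at 59.1% and 65.7%, and also had the fewest antisense reads among all coding reads, 22.9% and 33.9%, against 59.1% in control. Their part in these shares was not tested.

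Between mutants and control, the TDP2 libraries gave no called change at any of the 10 genes. In tofu-6 0 of 20 sense and antisense values passed (edgeR; 0.0887% of 22549 features were called higher and 0.173% lower) and 0 were at an unadjusted p under 0.05. DESeq2 called 0 there, but it gave no adjusted p for 7 sense and 6 antisense values. In erh-2 0 of 20 passed (0.0577% higher and 0.111% lower over all features), with tofu-4 sense alone at an unadjusted p under 0.05, and 0 by DESeq2 (3 sense values without an adjusted p). In pics-1 0 of 20 passed (0.0177% and 0.0355%), 0 at an unadjusted p under 0.05 and 0 by DESeq2 (again 3 sense values without an adjusted p). In prg-1 0 of 20 passed (0.0887% and 5.54%), 1 at an unadjusted p under 0.05 and 1 by DESeq2, both parn-1 antisense. The standard errors were 0.87 to 1.37 on the log2 scale, and an estimate as large as −3.13, that of parn-1 antisense in prg-1, did not pass, so large changes could go uncalled with these libraries.

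The estimates nevertheless had a common side in 2 mutants. Sense estimates were positive for 10 of 10 genes in tofu-6 (median log2 change 1.09; 0.81 over sense coding features, of which 79.9% were positive). In erh-2 they were positive for 10 of 10 (median 1.65; 1.06 over sense coding features, 77.0% positive). Antisense estimates were negative for 9 of 10 genes in tofu-6 (median −0.48, against −0.64) and 9 of 10 in erh-2 (−1.26, against −1.38), with parn-1 the positive one in both. These medians lie near those of coding genes in general. The side depends on the scaling: relative to microRNA reads, which raises the median of all features by 1.75 in tofu-6 and by 2.89 in erh-2, the antisense estimates were positive for 10 of 10 genes in both, and relative to sense coding reads the sense estimates were positive for 8 of 10 in both. In erh-2, scaling to microRNA reads also brought 8 sense values past the threshold, higher, where TMM scaling gave 0. On that scale the median change over all features was itself 2.79. The share of all features called there is not given, so the 8 cannot be read as particular to these genes. In pics-1 the medians were 0.31 sense and 0.33 antisense, with tofu-2 the one negative antisense estimate (−1.18 ± 1.21); relative to antisense coding reads 7 of 10 antisense estimates were negative. These comparisons share the control library.

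**Figure D4:**
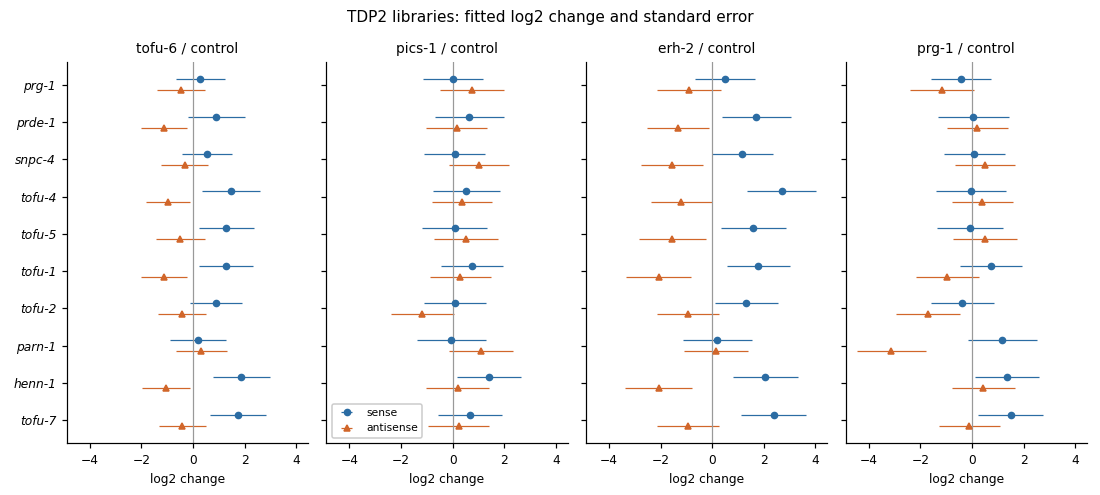
Fitted log2 change of each mutant against control in the TDP2 libraries, sense (circles) and antisense (triangles), with standard errors as bars. Sense estimates lay right of 0 for 10 of 10 genes in tofu-6 and erh-2, and the estimate farthest from 0 was parn-1 antisense in prg-1 at −3.13.

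The genes with the widest fitted sense differences in tofu-6 and erh-2 were tofu-4, tofu-7 and henn-1. TOFU-4 is a factor of piRNA transcription, and its sense RPM was 1.29 in control, 0.923 in prg-1, 2.40 in pics-1 and 6.24 in erh-2, with 3.64 (it20), 4.09 (ust94), 4.25 (ust95) and 2.08 (yt2) in tofu-6. Control was below each of the 4 alleles, by a fitted 1.46 ± 1.12 (edgeR, adjusted p = 0.795), and below erh-2 by 2.70 ± 1.33 (adjusted p = 0.454). The reads behind these values numbered 8 to 84. For tofu-7, found in a screen for genes whose loss disturbs piRNAs, RPM was 2.04 in control, 4.27 in prg-1, 4.16 in pics-1 and 7.87 in erh-2, and the alleles, in the same order as before, stood at 9.22, 8.31, 4.57 and 4.05. Control was the lowest of the 8, and the changes were 1.73 ± 1.08 in tofu-6 (adjusted p = 0.795) and 2.37 ± 1.26 in erh-2 (adjusted p = 0.474). Likewise henn-1 was lowest in control at 2.69 RPM, with 5.07 in prg-1, 9.21 in pics-1, 8.32 in erh-2, and 11.7, 11.6, 6.10 and 9.44 over the alleles (1.88 ± 1.09 in tofu-6, edgeR, adjusted p = 0.795).

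Sense reads of the genes for 5′ processing varied among the tofu-6 alleles. The gene tofu-1 had 19.1 RPM in it20, 14.5 in ust94, 9.80 in ust95 and 10.7 in yt2, with 5.69 in control, 7.03 in prg-1, 12.2 in pics-1 and 14.6 in erh-2. For tofu-2 the alleles had 10.4, 14.6, 8.82 and 3.43 RPM, control 5.26, prg-1 3.00, pics-1 7.19 and erh-2 9.73, so that yt2 lay below control and the other 3 alleles above. Antisense reads of tofu-2 differed between alleles as well, from 2.53 RPM in ust94 to 13.6 in ust95, with 8.70 in control and 1.96 in prg-1. The summed sense level of the 13 germline markers ran from 672 (ust95) to 1040 RPM (ust94) in the tofu-6 alleles and was 486 in control; its part in the sense levels was not tested.

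In the untreated libraries each mutant was 1 library against 1, so the ratios have no replicate check and their intervals cover counting error only. A ratio was counted as past 2-fold at 2 or more, or at 0.5 or less, with 20 or more reads in both libraries together. On the sense strand 2 of 10 genes were past 2-fold higher in tofu-6 (29.5% of sense coding features), 4 in tost-1 (14.5%), 3 in erh-2 (20.8%), 3 in pics-1 (33.5%) and 2 in prg-1 (4.28%). None was past 2-fold lower, where sense coding features gave 2.91%, 4.66%, 4.69%, 3.49% and 10.3% in the same order. Scaled to microRNA reads instead, 4 genes were past 2-fold lower in tofu-6, 2 in pics-1 and 3 in prg-1, and tofu-5 remained the one past 2-fold higher in erh-2, pics-1 and tofu-6. MicroRNA reads made up 4.01% of the untreated control library and 6.05% (prg-1) to 13.5% (tofu-6) of these lower mutants. The share of sense coding features past 2-fold on that scale is not given, so these counts cannot be read as particular to the 10 genes. Per assigned reads, the median ratios of sense coding features were 1.70 (tofu-6), 1.42 (tost-1), 1.55 (erh-2), 1.74 (pics-1) and 0.813 (prg-1). Ratios in the 4 mutants other than prg-1 therefore have to be read against a general excess of sense reads.

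One gene, tofu-5, was past 2-fold higher in all 5 mutants. TOFU-5 is a factor of piRNA transcription, and its sense reads numbered 5 in control, 17 in prg-1, 27 in tost-1, 42 in erh-2, 61 in tofu-6 and 64 in pics-1. The ratios were 2.37 (0.839 to 8.21), 5.52 (2.10 to 18.4), 7.10 (2.81 to 23.0), 7.32 (2.97 to 23.4) and 8.57 (3.49 to 27.3), and they all rest on the 5 reads of the 1 control library. In the TDP2 control it had 20 reads, 2.15 RPM, against 1.50 in prg-1 and 2.82 to 6.99 in the 4 alleles, pics-1 and erh-2, and the fitted changes did not pass (1.29 ± 1.06 in tofu-6, edgeR, adjusted p = 0.795). Scaled to sense coding reads the untreated ratios of tofu-5 were 2.79, 4.01, 4.65, 4.29 and 5.00 in the same order, and tofu-5 was then the one gene past 2-fold in tost-1, erh-2, tofu-6 and pics-1.

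The other sense ratios past 2-fold were lower and lay closer to the general excess. They were tofu-1 in tofu-6 (2.26), pics-1 (2.38) and tost-1 (2.04), henn-1 in pics-1 (2.11), erh-2 (2.06) and tost-1 (2.04), tofu-2 in erh-2 (2.19), and parn-1 in prg-1 and tost-1. None of tofu-1, henn-1 and tofu-2 stayed past 2-fold when scaled to sense coding reads. In prg-1, parn-1 did, at 2.74 (1.41 to 5.74). Summed over the 13 germline markers, sense RPM was 610 in control, 461 in prg-1 and 1099 to 1190 in the other 4 mutants; its part in the ratios was not tested.

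**Figure D5:**
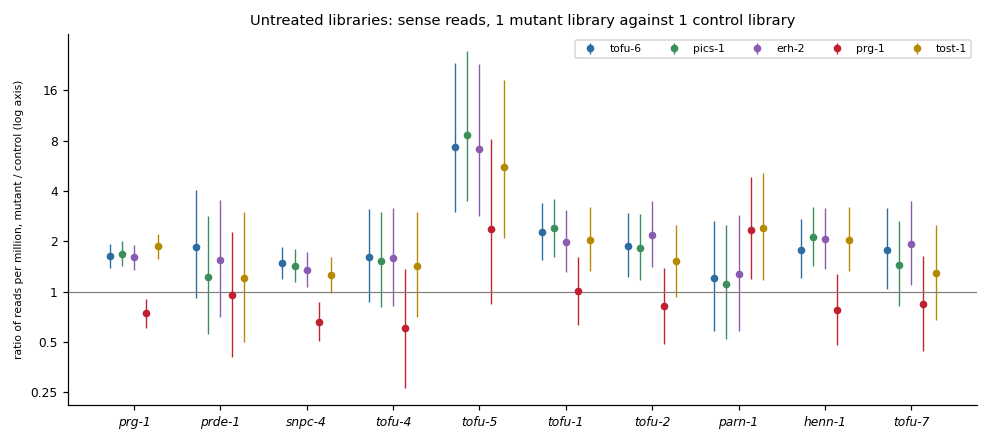
Ratio of sense reads per 1000000, mutant over control, for each gene in the untreated libraries, with exact 95% counting intervals, on a log axis; each point is 1 library against 1. Most points of tofu-6, pics-1, erh-2 and tost-1 lay between 1 and 2.4, those of tofu-5 reached 8.57, and prg-1 lay at 0.604 to 2.37.

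Antisense reads in untreated libraries were enough to count for few genes. In tofu-6 prg-1 (2.33, 1.35 to 4.24), snpc-4 (5.70, 1.38 to 50.5) and parn-1 were past 2-fold higher, 3 of 3 counted, where 67.7% of antisense coding features were. In pics-1 prg-1 (2.84) and parn-1 were, 2 of 2 (60.7%), and in erh-2 parn-1, 1 of 2 (51.8%). In prg-1 0 of 2 and in tost-1 0 of 2 were (45% and 24.5%). Lower ratios past 2-fold were found for none, where 2.55%, 5.55%, 9.36%, 11.4% and 11.4% of features were. Scaled to microRNA reads, 0 antisense ratios were past 2-fold in any mutant. The share of antisense coding features past 2-fold on that scale is not given.

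By likeness over the 14 libraries, measured as the root mean square difference of log2(RPM + 1) after centring, the sense profile of prg-1 was closest to cls-2 (0.17), lin-41 (0.18) and lbp-9 (0.19), with a median of 0.54 over 1449 candidates of similar level. Its antisense profile was closest to csr-1 (0.31), F55F10.1 (0.31) and ecps-1 (0.34), with a median of 1.28 over 312. For parn-1 antisense the closest was K09H11.11 (0.36; median 0.94 over 270). These measures are descriptions, and the genes share libraries and depth.

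Other genes of the piRNA and 22G pathways, 22 by name, were set beside the 10. Of these 19 were in the tables and 18 were tested on each strand. None passed in a mutant against control on either strand (edgeR). At an unadjusted p under 0.05 pid-4 sense was found in tofu-6 and in erh-2, and tofu-6 and erh-2 antisense in erh-2. DESeq2 called 0 of them in any of the 4 mutants, with 1 to 8 of 18 left without an adjusted p on a strand. Their median log2 changes in prg-1 were 0.35 sense and −0.05 antisense, near those of the 10 genes (0.07 and 0.06). After TDP2 18 of 18 rose on the antisense strand (median 4.15), and on the sense strand 2 rose and 6 fell. Of all antisense coding features 90.6% rose (median 3.88), so the antisense rise is the general one. Among all sense coding features 10.2% rose and 14.4% fell. The sense rises were at pid-1 (3.68 ± 0.37, adjusted p = 0.000101) and erh-2 (1.04 ± 0.38, adjusted p = 0.0355). ERH-2 is a subunit of the complex named in the title and PID-1 one of its cofactors in the piRNA pathway.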

How the data were processed

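The authors deposited raw read counts per transcript or piRNA entry, sense and antisense apart, in 1 table per library. The submitters' processing notes name Bowtie2. The build, the counting tool and how reads with several matches were handled were not given in the sources used here. Entries without a class (3 to 27 reads per library) were left out, and 44852 of 45510 gene identifiers were found in the WBcel235 annotation, which gave names, positions and exon lengths. No 2 libraries held identical counts.

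Counts were summed per gene and strand. Features with 10 or more reads in a library and 30 or more over the libraries of a fit were tested with the quasi-likelihood test of edgeR 4.0.16 in R 4.3.3 (TMM scaling, two-sided, Benjamini-Hochberg adjustment over all features, threshold 0.05). All 8 TDP2 libraries entered 1 fit with 5 groups, whose 3 residual degrees of freedom come from the 4 tofu-6 alleles. The single libraries of the other groups are therefore assumed to vary like them. The median prior degrees of freedom of this fit were infinite. Its tests therefore used the trend of spread over all features, not each gene's own spread among the alleles. TDP2 against untreated used 10 libraries (5 strains, strain as the block), since the strain name in the titles pairs them (4 residual degrees of freedom). The standard error is the size of the log2 change divided by the square root of F. DESeq2 1.42.0, other scalings, other filters and leaving out each tofu-6 allele or each strain pair were alternatives (the single TDP2 libraries of the other groups cannot be left out of their own comparisons), and the fits were tested on simulated data. There 200 features of higher counts were given a log2 change of 4. The fit recovered 52% of them for tofu-6 against control (5 false calls) and 100% for TDP2 against untreated (3 false calls). A change of that size could thus be missed in the tofu-6 comparison. The simulated reads used the trend of spread, not each gene's own. Some of the 10 genes had fewer reads, such as 10 to 49 (prde-1) and 12 to 28 (parn-1) on the sense strand with TDP2. Recovery at such low counts was not simulated. Untreated mutants were compared with control as ratios with exact 95% intervals (scipy 1.17.1), without a test; intervals cover counting error only.

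All 10 genes are described by rule. The members and the lists were chosen with earlier results of these data known.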

Additional observations from a re-analysis of the deposited data

Results flagged for a closer look

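In the 4 tofu-6 TDP2 libraries, 2 of the 20 values (10 genes, sense and antisense) had a library far from the other 3. Chance alone flags about 1 in 20 such groups. The sense reads of prg-1, the gene of the Piwi protein, stood at 28.0, 30.8, 13.3 and 29.4 counts per 1000000 (TMM-scaled) in it20, ust94, ust95 and yt2, with a mean of 25.4 ± 8.13 (SD, n = 4). The gap between ust95 and the next allele was 0.841 of the whole range. The antisense reads of tofu-5, a gene of piRNA transcription, stood at 2.08, 1.88, 1.97 and 4.62 counts per 1000000 in the same order, with a mean of 2.64 ± 1.33. Here yt2 was highest, with a gap of 0.926 of the range. Its value rests on 49 reads. Reads antisense to coding genes made up 27.1% of the yt2 library, with 10.7% in it20, 4.93% in ust94 and 15.5% in ust95. Per 1000000 such reads, tofu-5 stood at 19.1 (it20), 31.7 (ust94), 14.7 (ust95) and 22.2 (yt2). On that scale yt2 lay within the range of the other alleles.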

How the results depend on the processing

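Over all fitted changes and alternatives, 1353 values kept their direction and their side of the threshold (a missing DESeq2 adjusted p was counted as not passing), 20 came past the threshold and 9 no longer passed. The sign changed for 111 values that passed under neither setting and for 7 that passed under 1 of them. Scaling to coding reads and the comparison of prg-1 with tofu-6 were added after the data had been seen. In untreated libraries the number of the 10 genes past 2-fold on the sense strand went, with microRNA scaling, from 2 to 5 in tofu-6 (4 of them lower) and from 3 to 1 in erh-2, and stayed at 3 in pics-1 with 2 now lower. In prg-1 it gave 3 lower in place of 2 higher. On the antisense strand it went to 0, from 3 in tofu-6, 2 in pics-1 and 1 in erh-2. With coding reads of the same strand the sense count was 1 in tofu-6, pics-1, erh-2 and tost-1 (from 2, 3, 3 and 4), and the antisense count 1 in pics-1 and 0 in erh-2. The shares of coding features past 2-fold on these scales are not given, so these counts cannot be read as particular to the 10 genes.

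Among TDP2 libraries, erh-2 went from 0 to 8 called values with microRNA scaling, prg-1 against control from 0 to 1 with DESeq2 (parn-1 antisense), and prg-1 against tofu-6 from 0 to 1 with DESeq2. With microRNA scaling the median change over all features in erh-2 was 2.79, and the share of all features called is not given. Leaving out each tofu-6 allele gave 0 to 1 calls in the last comparison, the 1 without ust94, and 0 in the other 4. For TDP2 against untreated, 12 values were called (10 higher, 2 lower), and 12 with the same split without the replicate block and without each strain in turn. The calls were not stable to scaling: antisense coding reads gave 0 higher and 10 lower, and microRNA reads 13 higher and 0 lower. On these scales the median change over all features was −3.07 and 2.91. The shares of all features called on them are not given, so these counts cannot be read as particular to the 10 genes. With microRNA scaling the sense log2 changes turned positive for 10 of 10 genes, among them 1.00 (prg-1) and 1.24 (snpc-4), no longer called, and 2.10 (prde-1), 2.20 (tofu-1) and 2.33 (tofu-7), called higher (edgeR, adjusted p = 0.0445, 0.0362 and 0.0308). With antisense coding reads those of prde-1 and tofu-5 antisense turned to −0.50 and −0.16. The cause was not tested. Untreated antisense counts of 0 to 96 reads, and 1 library for most groups, limit what these libraries can resolve.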
